A study of Mus musculus with 5 samples.

Results

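The regions described here are places in the mouse genome where ZFP541 was found by ChIP-seq within 1 kb of the ends of at least 2 different protein-coding genes at once, here called paired gene ends. Overlapping peaks of the wild-type replicates were joined, regions touching a peak of the knockout library were dropped, and the summit of the widest replicate 1 peak gave each region its position. Of 5325 regions, 5254 lay on chromosomes 1 to 19, and 530 of these (10.1%, 95% exact interval 9.29 to 10.9%) had such a summit. Another 3255 regions lay within 1 kb of an end of 1 coding gene, and 1469 lay away from coding gene ends.

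ChIP-seq enriches cross-linked chromatin with an antibody and sequences the DNA. The material was pachytene and diplotene spermatocytes, germ cells in the long prophase of the first meiotic division, which were isolated from adult C57BL/6 testes by STA-PUT sedimentation. They were fixed in 1% formaldehyde and precipitated with a rabbit antibody raised against residues 1 to 300 of ZFP541. The data are 2 wild-type ChIP peak lists and 1 list from Zfp541-/- cells; 2 wild-type inputs were not analysed here. Nothing in the labels says that the wild-type libraries came from separate animals, and the knockout is 1 library. Peak lists hold no RNA, so the labelled cell type could not be checked against its markers, and read depth is unknown.

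Mammalian genomes hold many gene pairs that start close together on opposite strands and are read outward from a shared stretch of DNA, called head-to-head pairs or bidirectional promoters. They are often rich in CpG dinucleotides and poor in TATA boxes, and pairs of DNA repair, mitochondrial and histone genes are well-known examples. ZFP541 carries zinc fingers, is made in meiotic male germ cells, and acts there with KCTD19 and histone deacetylases.

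The DNA between the starts of 8 head-to-head pairs is shown because it is the sequence that both genes share upstream of their starts. These are the 8 highest-ranked of the 94 pairs whose starts were 40 to 250 bases apart and whose intervening DNA was covered by the promoter table, which comes from RefSeq (GRCm38.p6, the mm10 assembly). Each is printed on the + strand from the base after the start of the first gene to the base before the start of the other. Capitals mark matches to any of 11 short motifs on either strand.

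Cramp1l/Ift140: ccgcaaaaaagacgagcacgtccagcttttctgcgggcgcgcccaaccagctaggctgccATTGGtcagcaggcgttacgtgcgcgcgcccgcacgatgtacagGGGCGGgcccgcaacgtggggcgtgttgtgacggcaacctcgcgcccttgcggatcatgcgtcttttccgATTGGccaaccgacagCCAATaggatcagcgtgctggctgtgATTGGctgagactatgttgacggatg
Slc26a8/Mapk14: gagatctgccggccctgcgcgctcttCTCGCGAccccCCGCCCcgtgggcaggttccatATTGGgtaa
6030458C11Rik/Drosha: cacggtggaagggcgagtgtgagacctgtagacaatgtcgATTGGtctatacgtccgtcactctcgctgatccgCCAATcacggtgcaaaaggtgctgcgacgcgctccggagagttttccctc
Exoc8/Sprtn: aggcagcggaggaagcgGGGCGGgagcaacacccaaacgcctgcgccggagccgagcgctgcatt
Shld2/Glud1: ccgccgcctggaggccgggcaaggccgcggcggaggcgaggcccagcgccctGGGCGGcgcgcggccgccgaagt
Glyr1/Ubn1: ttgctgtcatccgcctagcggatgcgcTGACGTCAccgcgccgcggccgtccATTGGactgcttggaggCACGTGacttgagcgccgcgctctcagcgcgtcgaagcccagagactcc
Tent4a/A930018O16Rik: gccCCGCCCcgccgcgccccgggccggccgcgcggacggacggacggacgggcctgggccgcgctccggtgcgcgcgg
B3galt6/Sdf4: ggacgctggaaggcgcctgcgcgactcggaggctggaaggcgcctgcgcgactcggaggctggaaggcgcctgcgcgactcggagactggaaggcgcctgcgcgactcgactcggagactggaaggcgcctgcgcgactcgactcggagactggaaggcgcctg

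The Cramp1l/Ift140 stretch (chr17:25015841-25016082, 242 bases) holds 4 CCAAT boxes and 1 GC box. Ift140 encodes a subunit of the transport complex that builds cilia and flagella. The Slc26a8/Mapk14 stretch (chr17:28691274-28691341, 68 bases) holds a CTCGCGA element, a GC box and a CCAAT box. Slc26a8 is an anion transporter of the sperm flagellum, and Mapk14 is the kinase p38 alpha. The 6030458C11Rik/Drosha stretch (chr15:12824680-12824803, 124 bases) holds 2 CCAAT boxes, at the start of the gene for the nuclear microRNA-processing enzyme. Exoc8/Sprtn (chr8:124897706-124897770, 65 bases) and Shld2/Glud1 (chr14:34310652-34310726, 75 bases) each hold 1 GC box. Sprtn encodes a protease that removes proteins cross-linked to DNA, and Shld2 a part of the shieldin complex of DNA break repair. Glyr1/Ubn1 (chr16:5049939-5050056, 118 bases) holds a complete palindromic cAMP response element, a CCAAT box and an E box. Tent4a/A930018O16Rik (chr13:69534237-69534314, 78 bases) is 91% G and C and holds 1 GC box. B3galt6/Sdf4 (chr4:155992679-155992842, 164 bases) holds none of the 11 motifs.

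The summits did not lie in these 8 stretches. In base numbers of the printed stretch, the replicate 1 summit was at 549 for Cramp1l/Ift140, 287 for Slc26a8/Mapk14, 487 for Exoc8/Sprtn, 384 for Glyr1/Ubn1 and 645 for Tent4a/A930018O16Rik, all beyond its right end. It lay to the left, at -46, -39 and -236, for 6030458C11Rik/Drosha, Shld2/Glud1 and B3galt6/Sdf4. The stretches are therefore the DNA between the starts and not the DNA under the summit, which is not printed here.

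The 530 regions touched 1052 distinct genes, which is 5.12% of the 20556 autosomal protein-coding genes. Most of them were pairs of starts. The promoter table gave the strand of both genes at 395 regions, and of these 304 (77%, 72.5 to 81%) were head to head. Another 79 (20%, 16.2 to 24.3%) joined the start of one gene with the 3′ end of its neighbour, 65 of them on the same strand so that one gene ran into the next. At 9 regions (2.28%) both starts were on the same strand, and at 3 (0.759%) a pair of 3′ ends met. The other 135 regions had a gene whose strand was not in the table, among them all 10 on chromosome 18. At 10 regions 3 genes met.

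Each region holds a peak of both replicates by the rule that chose it, so the nearness of the replicate 2 summit is partly fixed by that choice. The widest replicate 2 peak had its summit within 1 kb of both genes at 508 of 530 regions (95.8%, 93.8 to 97.4%). For head-to-head pairs this was 297 of 304 (97.7%). The summits of the replicates were a median of 78.5 bp apart, against 90 bp for regions at 1 coding end.

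Fold enrichment is the peak caller's ratio of ChIP signal over its local background at the summit; these are the authors' own values, and each region carries the fold of its strongest peak in each list. The paired-end regions were of middling strength. The median fold was 5.28 in replicate 1 (range 2.28 to 18.9) and 5.71 in replicate 2 (2.29 to 23.2), with quartiles of 3.99 and 7.31 and of 4.03 and 8.12. Regions at 1 coding end had medians of 5.71 and 6.37, all autosomal regions 5.42 and 6.04, and regions away from coding ends 5 and 5.37. The difference between paired and lone ends had the same direction in both lists, and it was small beside the spread among regions. As folds are not on one scale across lists, percentile ranks within each list were also compared: the medians were 64.8 and 72.1 for paired ends and 69.8 and 76.1 for lone ends.

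A smaller share of paired ends was among the strongest peaks. Both replicates placed 49 of 530 regions (9.25%, 6.92 to 12%) in the top 10% of their list, against 397 of 3255 at lone ends (12.2%, 11.1 to 13.4%). These intervals overlap. Paired-end regions were also narrower, with a median width of 972 bp (232 to 5330 bp) against 1105 bp, and 57 of them (10.8%) reached 2 kb against 485 (14.9%) at lone ends. The fold of replicate 1 followed that of replicate 2 across the 530 regions with a Spearman rho of 0.69, and across lone ends with 0.73; regions of one list share a library, so this is a description. Among the paired-end regions, wider ones had higher folds (rho 0.59 and 0.68).

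**Figure D1:**
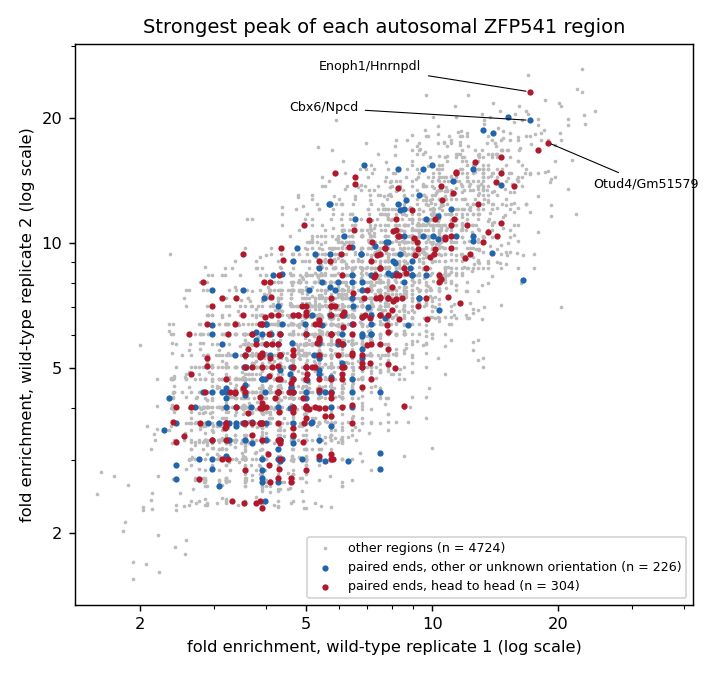
Fold enrichment of the strongest peak of each of the 5254 autosomal regions in wild-type replicate 1 (horizontal, log scale) and replicate 2 (vertical, log scale). Head-to-head regions are red, other paired ends blue and all other regions grey; the 530 paired-end regions lie within the range of the others, from 2.28 to 18.9 and from 2.29 to 23.2.

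The highest-ranked region lay between Enoph1, an enzyme of methionine salvage, and Hnrnpdl, an RNA-binding protein (chr5:100038163-100040990). Its fold was 17.1 in replicate 1 and 23.2 in replicate 2. The gene models overlap by 909 bases at their starts, and the summit lay 172 bp from the Hnrnpdl start. The region at Cbx6, a Polycomb chromobox gene, and Npcd (chr15:79832289-79836738) followed with 17.1 and 19.8, and is 4450 bp wide. Otud4, a deubiquitinase gene, paired with the predicted gene Gm51579 at 18.9 and 17.5. Atraid and Slc5a6, a vitamin transporter gene, had 17.9 and 16.8.

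Nsd2, a histone H3 lysine 36 methyltransferase gene, lay beside the predicted Gm52782 at 14 and 18.4. Pibf1, a centriolar satellite gene, and Dis3, the catalytic nuclease of the RNA exosome, had 14.6 and 16.1 with a summit 163 and 193 bp from their starts. Across the replicates, the percentile ranks of the 12 highest regions ran from 97.2 to 100. These regions were chosen by the mean of both ranks, so high ranks in both replicates follow from that choice.

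The remaining regions of the first 12 were Ano8/Dda1 (13.2 and 18.8), Zbtb14/Gm49894 (14.6 and 14.8), Phtf2/Tmem60 (15.7 and 13.8), Slc5a3/Mrps6 (14.6 and 13.8) and Dst/Bend6 (14.2 and 14.1). Slc5a3, a myo-inositol transporter gene, and Mrps6, a mitochondrial ribosomal gene, start 14 bp apart on the same strand. Zbtb14 encodes a BTB zinc finger protein and Dst a giant cytoskeletal linker. The second genes of Otud4, Nsd2 and Zbtb14 are predicted gene models. Over all 530 regions, 484 (91.3%) had a curated transcript for both genes.

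The 3 lowest-ranked regions were Vamp3/Gm38529 (2.44 and 2.91), Smarcd2/Tcam1 (2.78 and 2.7) and Gm40364/Gm40363 (2.44 and 2.71). The lists reach down to weak peaks: at 70 of the 530 regions the strongest peak had a q-value over 0.05 in at least 1 replicate, and at 6 in both. Regions with 3 genes were led by Upf1, Cers1 and Gdf1 (7.14 and 8.39), Chtf8, Utp4 and Derpc (7.85 and 7.36) and Gm27021, Cox4i1 and Emc8 (7.14 and 6.71). Upf1 is the helicase of nonsense-mediated decay and Cox4i1 a subunit of cytochrome c oxidase.

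Near the 1 kb limit, the regions just inside were Vamp3/Gm38529 with the farther end at 988 bp, Fam217b/Ppp1r3d at 989 bp (4.29 and 8.39) and Tbc1d10b/Mylpf at 1000 bp (3.52 and 9.4). Just outside were Zcchc3/6820408C15Rik at 1001 bp (7.23 and 9.06), Chst10/Gm51581 at 1003 bp (3.93 and 4.36) and 4930524J08Rik/Hnrnpd at 1007 bp (5.1 and 7.05). The folds on the 2 sides of the limit overlap. For distances, summits and gene ends were numbered from different first bases. Each distance from summit to gene end can therefore be off by 1 bp, and a region right at the limit could change sides.

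How often the genome's paired ends carried ZFP541 was counted over all 4311 neighbouring ends of different coding genes at most 2 kb apart, of which 549 (12.7%, 11.8 to 13.8%) had a region summit within 1 kb of both ends. A region can lie at more than 1 such pair. Of 32653 coding ends with no neighbouring coding end that close, 3058 (9.37%) had a summit within 1 kb. The share differed by which ends met. Head-to-head pairs were occupied in 307 of 972 cases (31.6%, 28.7 to 34.6%), and lone starts in 2410 of 13133 (18.4%, 17.7 to 19%). Pairs of a start and a 3′ end were occupied in 82 of 981 cases (8.36%, 6.7 to 10.3%), although lone starts reached 18.4%; the summit has to be within 1 kb of both ends of a pair. At converging 3′ ends the share was 7 of 1052 (0.665%, 0.268 to 1.37%), next to 51 of 12885 lone 3′ ends (0.396%, 0.295 to 0.52%).

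Among head-to-head pairs the share was similar up to 500 bp between the starts. It was 35.1% (127 of 362) where gene models overlap at their starts, 33.1% (92 of 278) below 100 bp, 35.9% (56 of 156) from 100 to 250 bp and 30.5% (25 of 82) from 250 to 500 bp, all with overlapping intervals. It was 14.6% (6 of 41) from 500 to 1000 bp and 1.89% (1 of 53) from 1000 to 2000 bp. The window in which a summit counts shrinks as the starts move apart, so the last 2 shares are not comparable with the others. Of the 179 head-to-head regions whose starts were apart, 147 (82.1%) had at most 250 bases between them, with a median of 98. Most of all head-to-head pairs with starts apart, occupied or not, were also that close. There were 278 below 100 bp and 156 from 100 to 250 bp, against 82, 41 and 53 in the wider classes.

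**Figure D2:**
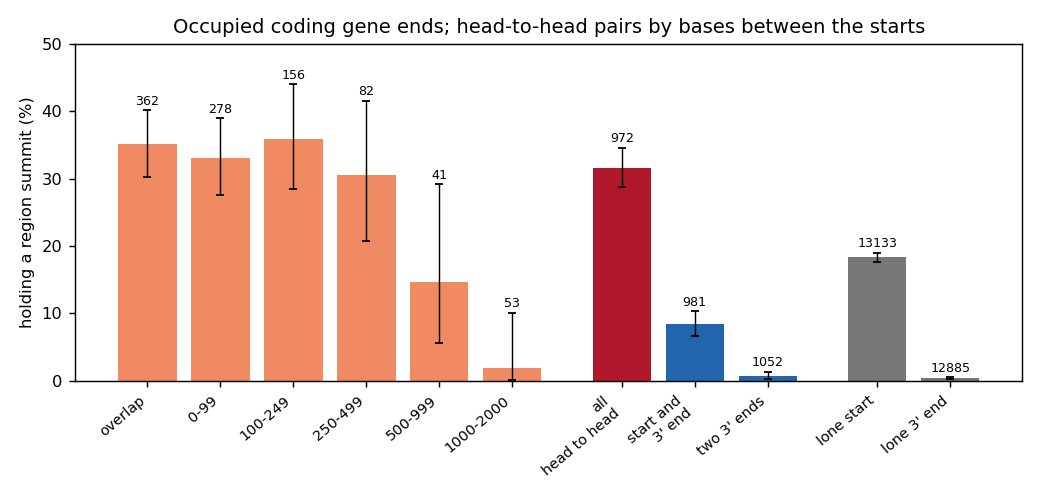
Percent of pairs or ends with a ZFP541 region summit within 1 kb (of both ends, for pairs); numbers over the bars are the pairs or ends counted, and error bars are 95% exact intervals. Orange bars split the 972 head-to-head pairs by bases between the starts, the red bar is all of them (31.6%), blue bars are other pairs and grey bars are lone starts (18.4%) and lone 3′ ends (0.396%).

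The summits lay beside the starts and inside the genes more than between them. Of the 179 head-to-head regions with starts apart, 16 (8.94%, 5.2 to 14.1%) had the replicate 1 summit between the starts. The other 163 (91.1%) had it downstream of the nearer start, which holds for any summit outside the space between the starts. By the replicate 2 summit, 157 (87.7%) lay downstream. The space between the starts is short, with a median of 98 bases, so few summits could fall there. At the 2572 regions with 1 lone start, 2056 summits (79.9%, 78.3 to 81.5%) in replicate 1 and 2068 (80.4%) in replicate 2 lay downstream, at a median position of 192 and 188 bp from the start. For head-to-head regions with starts apart the median was 167 and 166 bp. At a pair, a summit on either side is downstream of 1 of the starts, so these values are not comparable with those of lone starts.

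From the midpoint of the starts, the median distance to the summit over all 304 head-to-head regions was 228 bp in replicate 1 and 232 bp in replicate 2. Summits fell on both sides, and 167 (54.9%) and 160 (52.6%) were within 250 bp of the midpoint. Where gene models overlap, 54 of 125 summits (43.2%) lay in the overlap, whose median length was 303 bases. At the 79 regions that join a start and a 3′ end, 63 summits (79.7%, 69.2 to 88%) were closer to the start, and 57 (72.2%) lay downstream of it. Over all 530 regions the nearer end was a median of 172 bp away and the farther 388 bp. At 191 regions (36%) the farther end was more than 500 bp off, and at 126 (23.8%) both were within 200 bp.

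**Figure D3:**
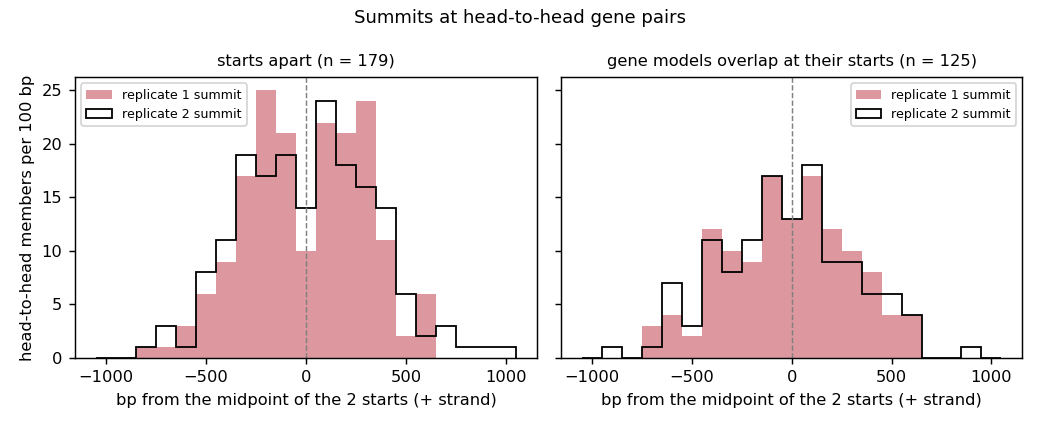
Position of the summit relative to the midpoint of the 2 starts, in bp along the + strand, for the 304 head-to-head regions in bins of 100 bp. Filled bars are replicate 1 and the black outline is replicate 2; with starts apart (179 regions, left) there are fewer summits at the midpoint than on either side of it, and with overlapping gene models (125 regions, right) they spread around it.

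Promoters of the paired ends were rich in CpG. For 1 promoter a region, the 300 bases from 250 before to 50 after the start nearest the summit, the median ratio of observed to expected CpG was 0.91 at the 304 head-to-head regions, and 92.4% were at 0.6 or more. It was 0.869 with 90% at the regions of 1 lone start, 0.793 with 76.8% at head-to-head pairs without a summit, and 0.38 with 34.6% at lone starts without one. The GC content had the same order except at the top, with medians of 66.3%, 67%, 59.7% and 53%. Over all 16456 coding promoters the CpG ratio was 0.597.

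Start by start, 644 of 1943 starts in head-to-head pairs (33.1%, 31.1 to 35.3%) had a summit within 1 kb, against the 18.4% of lone starts. Within classes of CpG ratio, chosen after these shares were seen, the intervals of paired and lone starts were apart in the 2 CpG-poor classes and overlapped in the other 3. Below 0.4 the shares were 13% (25 of 193) in pairs and 1.72% (97 of 5625) alone, and from 0.4 to 0.6 they were 27.2% and 8.56%. From 0.6 to 0.8 they were 24.9% and 24.3%, from 0.8 to 1 they were 36.5% and 41.4%, and at 1 or more 52.7% (47.3 to 58.1%) and 59.1% (55.9 to 62.3%). Of the 25 occupied paired starts below 0.4, 18 (72%, 50.6 to 87.9%) had a partner promoter at 0.6 or more. The same share over all 193 paired starts below 0.4 was not counted, so the 72% has no background to be read against. Among all head-to-head pairs with a promoter below 0.6, 201 had a partner at 0.6 or more and 92 did not. Pairs in which both promoters reached 0.6 were occupied in 247 of 679 cases (36.4%, 32.8 to 40.1%), and lone starts that reached it in 2174 of 5884 (36.9%, 35.7 to 38.2%). With 1 such promoter the share of pairs was 23.4% (47 of 201), and with none 14.1% (13 of 92).

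**Figure D4:**
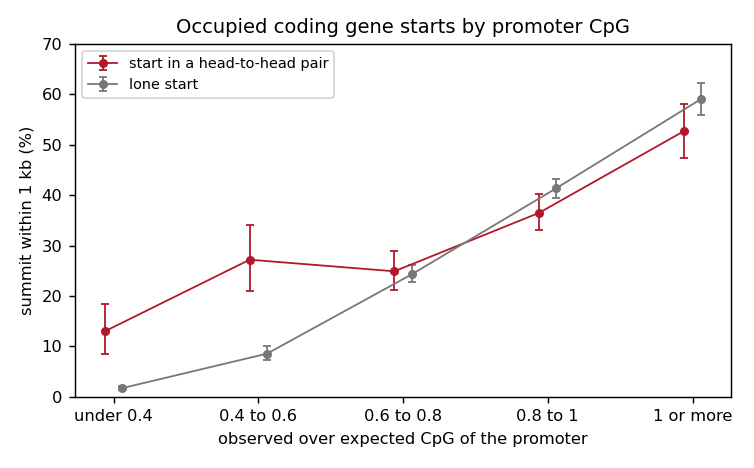
Percent of coding gene starts with a ZFP541 region summit within 1 kb, by the observed over expected CpG ratio of the promoter, for starts in head-to-head pairs (red) and lone starts (grey), with 95% exact intervals. Both shares are highest at the right, at 52.7% and 59.1%; the intervals of paired starts lie above those of lone starts in the first 2 classes.

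The 11 motifs were searched on both strands of the same promoters. At pairs without a summit, the promoter of the gene with the first identifier of each pair was read. The ETS core CCGGAA was in 39.1% (33.6 to 44.9%) of head-to-head regions and in 38.9% (35.1 to 42.7%) of head-to-head pairs without a summit, against 22.9% of lone-start regions and 19.5% of all coding promoters. Among promoters with a CpG ratio of 0.6 or more these were 41.6%, 46.3%, 24% and 31.1%. The intervals of pairs with and without a summit overlap, and that of lone-start regions lies below both. ETS proteins such as GABP are well-known regulators of bidirectional promoters. The GC box GGGCGG was in 71.1% of head-to-head regions, 59% of pairs without a summit, 77.5% of lone-start regions and 47.3% of all coding promoters. At a CpG ratio of 0.6 or more the pairs were nearer each other, with 73.7% (68.1 to 78.7%) and 67.6% (63.4 to 71.7%). Lone-start regions at that ratio had 81.5% and all coding promoters 74.4%, so head-to-head regions were near all coding promoters.

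The cAMP response core TGACGT was in 15.8% of head-to-head regions and 13.1% of pairs without a summit, with 8.82% of all coding promoters. The NRF1 core TGCGCA was in 15.5% and 19%, and in 10.1% of all. The element CTCGCGA, a ZBTB33 site, was in 5.26% and 4.82%, and in 2.71% of all. CCAAT was in 35.9% and 42%, against 39.1% of all coding promoters. The MYB core CAACTG was in 6.25% and 11%, with 11.8% of all, and the YY1 core AAGATGG in 6.25% and 10.1%, with 6.4% of all. TATAAA was in 5.59% and 6.17%, against 13.5% of all. The E box CACGTG was in 11.2%, 10.5% and 7.97%, and GTTGCCA, an RFX half-site, in 4.28%, 5.87% and 4.27%. Lone-start regions had 11.9% for TGACGT, 16.4% for TGCGCA, 5.4% for CTCGCGA, 7.53% for CAACTG, 4.85% for TATAAA and 12.5% for CACGTG. Their intervals overlap those of head-to-head regions. At a CpG ratio of 0.6 or more, TGACGT was in 16% of head-to-head regions and 13.5% of all coding promoters. TGCGCA was in 16.4% and 17.2%, CTCGCGA in 5.69% and 5.12%, and CAACTG in 5.34% and 8.03%. TATAAA was in 4.27% and 5.82%, and CACGTG in 11.4% and 11.5%. Each pair of intervals overlaps. CACGTG and TGACGT share the letters ACGT and can overlap when next to each other, and a match is a description of the letters only. In the 94 stretches between starts, 51 held a GC box, 37 a CCAAT box, 17 the ETS core, 15 the cAMP response core and 12 none of the motifs. These stretches had a median GC content of 68.3%.

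Few of the paired-end regions also met a long noncoding RNA gene. An end of one lay within 1 kb of the summit at 21 of 530 regions (3.96%, 2.47 to 5.99%), against 478 of 3255 regions at 1 coding end (14.7%, 13.5 to 15.9%). By orientation it was 7 of 304 head-to-head regions (2.3%) and 11 of 79 regions at a start and a 3′ end (13.9%). The same share over all paired and lone coding ends, occupied or not, was not counted. These values therefore have no genomic background to be read against. Median fold enrichment also differed by orientation, with quartile ranges that overlap widely. Regions at a start and a 3′ end had medians of 4.63 and 4.70 in the replicates (quartiles 3.63 to 5.96 and 4.01 to 7.72). Head-to-head regions had 5.36 and 5.71 (4.06 to 7.5 and 4.1 to 8.06). The highest regions at a start and a 3′ end were Sec24c/Fut11 (12.5 and 10.4), Gm52875/Wnt5b (10.3 and 11.7) and Epb41l4b/LOC108168956 (9.29 and 13.1). Sec24c is a coat protein gene of vesicles leaving the endoplasmic reticulum and Wnt5b a secreted signalling protein gene.

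The 3 regions at converging 3′ ends were Hcn2/Polrmt (9.29 and 7.38), Upf1/Cers1 (7.14 and 8.39) and Isyna1/Ssbp4 (3.57 and 4.3). Polrmt encodes the mitochondrial RNA polymerase. At Hcn2/Polrmt the 3′ ends are 17 bp apart and the summit lay 582 and 599 bp from them, and at Upf1/Cers1 it lay 217 and 312 bp away. Of the pairs that start on the same strand, Slc5a3/Mrps6 was followed by Fastkd5/Ubox5 (8.93 and 8.39) and Gdf1/Cers1 (6.79 and 7.72), whose starts are at the same base.

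Gene families were read against all autosomal coding genes, of which 33.2% have an end within 2 kb of another coding gene's end, 20.5% had a region summit within 1 kb of an end and 5.12% were in a paired-end region. Of the genes with such a neighbouring end (paired genes), 15.4% were in such a region. By list this was 56.4% (histone), 44.4% (deacetylase complexes), 28.1% (flagellum), 27.5% (DNA repair), 25% (tRNA synthetases) and 22.6% (respiratory chain). It was 22.2% for zinc finger, 18% for mitochondrial ribosomal, 12% for proteasome and meiotic, 2.7% for cytosolic ribosomal and 0% for somatic marker genes. A list's share of all its genes also depends on how many are paired. Of 12 lists, histone genes had the highest share in paired-end regions, 31 of 80 (38.8%) in 18 regions, and the highest share of paired genes, 55 (68.8%). Of them 41 (51.2%) were occupied. At 15 of these 18 both genes were on the list, most often one for H2A and one for H2B, which supply the dimer of the nucleosome. At H2ac24/H4bc24 the partner also has a histone symbol but was not on the list, so these counts leave it out. The folds were not high as a group, with medians of 5.48 and 4.53 beside 5.28 and 5.71 for all paired-end regions. H2ac11/H2bc11 led with 10.5 and 8.21, followed by H2bc7/H2ac7 (7.04 and 11.4) and Dpagt1/H2ax (7.31 and 9.83). H2ax encodes the variant that is phosphorylated at DNA breaks and over the sex chromosomes of spermatocytes. Histone genes of one class are near-identical copies, and how reads matching several of them were placed is not given in the sources used here.

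DNA repair genes were the next highest large list: 51 of 75 (68%) are paired, 22 (29.3%) were occupied and 14 (18.7%) were in paired-end regions. Among them were Gas2/Fancf (12.6 and 15.7), with a Fanconi anaemia core complex gene, and Ung/Alkbh2 (14.3 and 10.4), a pair in which both genes encode enzymes that remove damaged bases or alkyl groups from DNA. The medians of the 14 were 4.64 and 5.17. Chosen after their values were seen, Atm/Npat had 4.09 and 5.3 and Dclre1c/Suv39h2 5.67 and 12.4. Atm is the kinase that responds to DNA breaks, Npat a coactivator of histone genes, and Suv39h2 a histone H3 lysine 9 methyltransferase of testis.

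Axoneme and sperm flagellum genes had 9 of 64 (14.1%) in paired-end regions, with 32 (50%) paired and 11 (17.2%) occupied, so the share of occupied genes was below that of all coding genes. Their folds were the highest medians among lists with more than 5 regions, 6.86 and 8.71. Cramp1l/Ift140 had 11.4 and 14.8, and Dnaaf5/Prkar1b, with a dynein assembly factor gene, had 11.2 and 13.2. Plaa/Ift74 had 8.33 and 10.4. Ift140 and Ift74 belong to the transport machinery of cilia.

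Respiratory chain genes had 14 of 102 (13.7%) in paired-end regions and 20 (19.6%) occupied. The highest were Gabpa/Atp5j (7.5 and 8.73), Atp5e/Prelid3b (5.69 and 12.4) and Gdf9/Uqcrq (7.01 and 7.02). Gabpa encodes the DNA-binding subunit of GABP, and Atp5j and Atp5e subunits of ATP synthase. Mitochondrial ribosomal genes had 9 of 78 (11.5%), with 16 (20.5%) occupied; after Slc5a3/Mrps6 came Rab6a/Mrpl48 (6.55 and 13.9) and Mrps7/Gga3 (6.44 and 6.04). Of these lists, 62 of the respiratory chain genes (60.8%) and 50 of the mitochondrial ribosomal genes (64.1%) are paired. Of the 76 genes on the cytosolic ribosomal list, 37 (48.7%) are paired and 10 (13.2%) were occupied. On that list 1 gene, Rpl19 beside Cacnb1, was in a paired-end region (1.32%, with folds of 5 and 4.7). Rpl36al, which the list does not count, was in a head-to-head region with Mgat2.

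Of 459 zinc finger genes, 108 (23.5%) are paired, 101 (22%) were occupied and 24 (5.23%) were in 21 paired-end regions. Their share in paired-end regions was near that of all coding genes, while of the paired genes alone it was 22.2%, against 15.4% of all paired coding genes. After Zbtb14/Gm49894 came Zbtb1/Zbtb25 (13.6 and 10.6) and Zfp398/Zfp786 (13.3 and 10.1), in both of which each gene encodes a zinc finger protein. tRNA synthetase genes had 5 of 37 (13.5%), led by Ears2/Ubfd1 (8.64 and 8.45), Lyrm4/Fars2 (9.64 and 7.38) and D17H6S56E-5/Vars (5.69 and 9.4). The proteasome list was drawn by the symbol stem Psm, so not every gene on it need encode a proteasome subunit. It had 3 of 48 (6.25%), which were Psma7/Ss18l1 (5.36 and 9.06), Cep76/Psmg2 (4.01 and 5.71) and Dnajc2/Psmc2 (4.88 and 3.02). Of the proteasome list 5 genes (10.4%) were occupied, and of the synthetases 11 (29.7%). On the proteasome list 25 genes (52.1%) are paired, and among the synthetases 20 (54.1%).

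Of 50 genes of meiotic prophase, 25 (50%) are paired, 12 (24%) were occupied and 3 (6%) were in paired-end regions. Mepce/Zcwpw1 had 8.93 and 9.06, Rec114/Hcn4 7.71 and 9.73, and Rce1/Gm960 6.3 and 2.98. Zcwpw1 encodes a reader of histone marks that acts in repair of meiotic breaks, Rec114 a factor needed to make the breaks, and Gm960 is the table's symbol for Top6bl, a subunit of the enzyme complex that cuts the DNA. The first 2 were similar in both replicates, and the last differed between them.

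The list of ZFP541, KCTD19 and the deacetylase complexes had 9 of 23 genes (39.1%) paired, 13 (56.5%) occupied, and 4 (17.4%) in paired-end regions. These were Mideas/Gm46319 (6.52 and 11.4), Rbbp4/Zbtb8os (6.92 and 6.71), Eml3/Mta2 (5.95 and 5.71) and Wfdc3/Dnttip1 (6.07 and 4.03). Mideas and Dnttip1 are the scaffold and a dimerizing subunit of the mitotic deacetylase complex, and Rbbp4 and Mta2 belong to NuRD. Of 18 marker genes of the somatic testis cells (Sertoli, Leydig and peritubular), 8 (44.4%) are paired and 2 (11.1%) were occupied, and none was in a paired-end region.

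**Figure D5:**
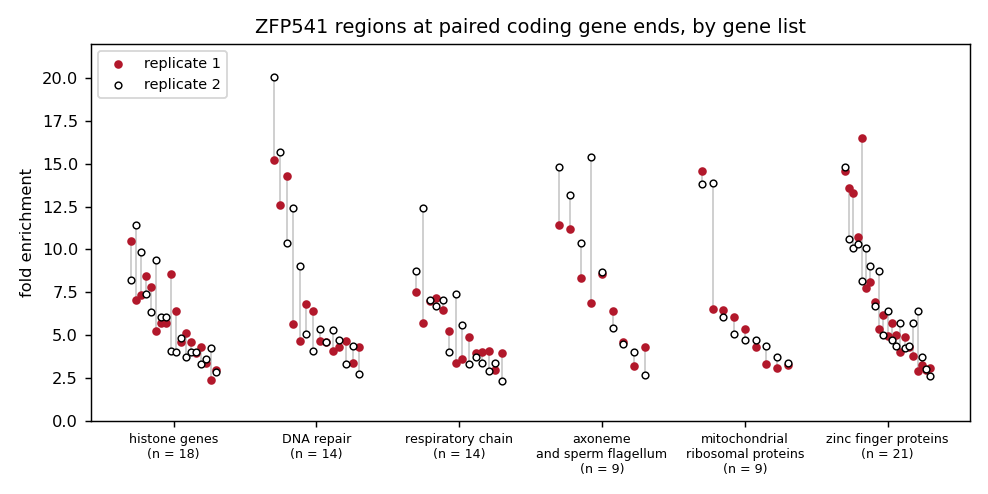
Fold enrichment in replicate 1 (red) and replicate 2 (open circles) of the paired-end regions with a gene of 6 lists, joined by a line for each region and ordered from the highest to the lowest mean rank within a list. Single regions of the DNA repair, zinc finger, mitochondrial ribosomal and flagellum lists reach 14.6 or more, and the 18 histone regions stay between 2.35 and 11.4.

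The knockout library had few peaks at such places. Of 128 autosomal regions shared by the wild-type replicates that touched one of its peaks, and were therefore dropped, none was at paired ends and 4 were at 1 coding end. Of its 246 autosomal peaks, 1 had its summit at paired ends, between Mfsd13b and Cdr2 with a fold of 3.7, and 8 at 1 coding end. Peak numbers depend on depth, so these counts describe this library.

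Peaks at paired ends were found again in the other replicate at nearly the share of lone ends in one list and at a lower share in the other. Of 679 replicate 1 peaks with a summit at paired ends, 568 (83.7%, 80.7 to 86.4%) overlapped a replicate 2 peak, against 84.3% at lone ends and 56.8% away from coding ends. Of 838 such replicate 2 peaks, 535 (63.8%, 60.5 to 67.1%) overlapped one of replicate 1, against 71% and 34.7%. The share differed with the fold: over the 4 quartiles of the replicate 2 list it was 31.9%, 41.1%, 69.8% and 97%, from weakest to strongest. At lone ends it was 28.9%, 42.7%, 75.9% and 99.2%. In the replicate 1 list the shares at paired ends were 62%, 75.2%, 88.1% and 99.5%, so many of its weaker peaks were found again too. At lone ends they were 59.3%, 70.8%, 91.5% and 99.5%. The intervals of paired and lone ends overlapped in each quartile of both lists. The 530 regions, which need both replicates, therefore hold a larger share of the stronger than of the weaker peaks at paired ends. By chromosome, their share of regions was highest on chromosomes 17 (37 of 267) and 19 (26 of 187), with 13.9% each. It was lowest on chromosome 1 (17 of 277, 6.14%). How many paired coding ends each chromosome holds was not counted, so these extremes have no background to be read against.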

How the data were processed

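Peak lists of 2 wild-type ChIP libraries and 1 knockout ChIP library were used. Per the submitters' processing notes, the authors worked on mm10 with cutadapt 2.6, Bowtie2 2.3.5, MACS2 2.2.6, SAMtools 1.10, deepTools 3.5.0 and Picard. Their settings, controls and peak threshold: not given in the sources used here. The deposited lists, called for each library separately, give per peak a score, −log10 q, −log10 p and a ratio of signal to background (fold enrichment). These are the authors' values, and the score was not used. Read depth is unknown.

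Peaks that overlapped by 1 bp or more between the wild-type replicates were joined. Gene ends came from the RefSeq table of GRCm38.p6, without 105 coding entries on scaffold coordinates, and strand and sequence from its promoter table, which covers 16456 of 20556 autosomal coding genes. A gene was matched by its identifier. CpG ratios were computed on 300 bases. Intervals are Clopper-Pearson (95%, exact), for counting error only. No test was made, as 2 libraries and 1 allow none over samples. The members and gene lists were chosen with earlier results of these data known. Named were the 12 highest regions by mean percentile rank of fold, up to 3 for each list and orientation, the 3 highest with 3 genes, the 3 lowest, and 3 on each side of the 1 kb limit; 1 of these regions is not reported here. The assignment of regions was tested on simulated data. The software was Python 3.11.15 with scipy 1.17.1, pandas 2.3.3, matplotlib 3.10.9 and numpy 2.4.6.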

Additional observations from a re-analysis of the deposited data

How the results depend on the processing

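Each of 9 values was recomputed under 12 other settings where these gave a value, 1 of them chosen after seeing the data (only genes with a curated transcript); 61 of 104 values stayed within the interval or within 1.5 times, and 43 moved. In each case the cause was not tested beyond the setting's own construction. With a −log10 q of at least 5 and then 10 in both lists, the number of regions was 252 and 144, their share of autosomal regions 9.09% and 9.1%, the median fold 7.36 and 8.93 in replicate 1 and 8.33 and 9.73 in replicate 2, the median width 1375 and 1567 bp, the occupied pairs 6.1% and 3.48% and the occupied lone ends 5.35% and 3.07%; the head-to-head share was 84.3% at 10. With 500 bp in place of 1 kb there were 339 regions (6.45%), with 87.3% of replicate 2 summits near both genes, 85.1% head to head, 11.1% of pairs and 7.42% of lone ends occupied. With 2 kb the share of regions was 13.6%, the replicate 2 summit share 98.5%, the head-to-head share 67.4% and the lone ends 10.7%. A reciprocal overlap of 50% gave median folds of 5.96 and 6.38, 8.93% of pairs and 6.9% of lone ends. Curated genes gave 9.21% of regions and 9.7% of lone ends. With the replicate 2 summit the share near both genes was 100% by construction. Leaving out replicate 1 or replicate 2 gave 679 to 838 regions, a share of 8.3% to 8.5%, widths of 513 to 570 bp, 15.1% to 18.9% of pairs, 10.9% to 12.4% of lone ends and 73.9% to 74.1% head to head; the median fold was 4.64 in replicate 1 alone and 4.36 in replicate 2 alone. The share of occupied pairs was above that of lone ends under all 12 settings, with overlapping intervals under both stricter q-value minimums. A single list includes peaks the other lacks, and gives no fold or summit for the library left out. No paired analysis was possible because the knockout shares only number 1 with the wild-type ChIP libraries, the inputs were not analysed here and no value comes from a test. Without reads, weak or absent peaks cannot be told apart from low depth.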
